A study of Mus musculus with 6 samples.

Results

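On this mouse expression array, 16194 of the 55681 probes that are not controls carry no gene name and are named by a genomic range, that is a chromosome, a start and an end. Of these, 7177 (44.3%) were well above background on 3 or more of the 6 arrays and are described here. Well above background is the scanner software's flag for a spot whose signal clearly exceeds its local background, and a probe with it is said to be detected. The ranges number 3543 and are 62 to 7128487 bp long with a median of 7304 bp. They are given here in mm9 coordinates, the build in the file headers. The files do not state that a range is intergenic or that its RNA is noncoding, so the probes are called range-named probes.

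Long noncoding RNAs are transcripts that are not translated into protein. Many arise between protein-coding genes, others from the strand opposite to a gene, and they are usually made at lower levels and in fewer cell types than messenger RNAs. Some act in the nucleus on neighbouring genes or on chromatin, some bind proteins or other RNAs, and most have no known function. In adipose tissue, such RNAs have been studied in preadipocyte differentiation, in brown and beige fat and in macrophages.

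The arrays compare male mice of the strain C57BL/6JHamSlc-ob/ob given Brazilian propolis, a resinous bee product, with others given vehicle. Propolis was injected intraperitoneally for 12 weeks, with 2 injections a week at 100 mg/kg, and the vehicle held a low concentration of DMSO and ethanol. Both groups carry the ob/ob mutation, which removes leptin, so no lean or untreated group stands beside them. RNA came from the vascular stromal cells of the mesenteric fat, those pelleted after collagenase digestion, which hold fibroblast-like progenitors, vessel cells and immune cells but few adipocytes. Each group has 3 arrays, labelled as biological replicates without saying how many mice each holds, and each was made from 0.1 µg of RNA with 1 dye. Vehicle 1 and 2 and propolis 1 and 2 lie on slide 1, vehicle 3 and propolis 3 on slide 2.

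Markers of stromal progenitors (Pdgfra, Dcn, Col1a1 and others) and macrophages were bright on every array, at means of 6.75 to 7.32 and 4.25 to 4.82, and the stromal ones were slightly higher on every propolis array (7.01 to 7.32) than on every vehicle array (6.75 to 6.85). All levels here are log2 signals relative to the array's own 75th percentile, so a level of 0 is the brightness under which 75% of all probes lie. Single arrays stood apart in markers of other tissues. The 8 pancreatic acinar markers averaged 4.64 on vehicle 2 and -4.87 to -3.71 on the others, and the 8 intestinal epithelial markers averaged 4.42 on vehicle 3 and -3.22 to -0.71 on the others. The 5 mesothelial markers averaged 0.54 to 1.96 on the vehicle arrays and 2.41 to 3.49 on the propolis arrays, without overlap. In RNA of these mixed cells, more cells of a type and more RNA per cell cannot be told apart.

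Detection of the range-named probes was split between extremes. On all 6 arrays 5711 (35.3%) were well above background, on none 6974 (43.1%), and between these lay 1414 on 1 array, 629 on 2, 476 on 3, 479 on 4 and 511 on 5. Of all other probes 63.8% were detected on all 6 arrays and 69.9% on 3 or more. Probes whose accession belongs to a gene that RefSeq types as lncRNA came near the range-named ones, at 47.2% of 871 probes, and probes of protein-coding genes stood at 76.9%. At the edge of the detection rule, the 476 probes seen on 3 arrays had a median level of -5.31 and the 629 seen on 2 arrays one of -5.62.

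**Figure D1:**
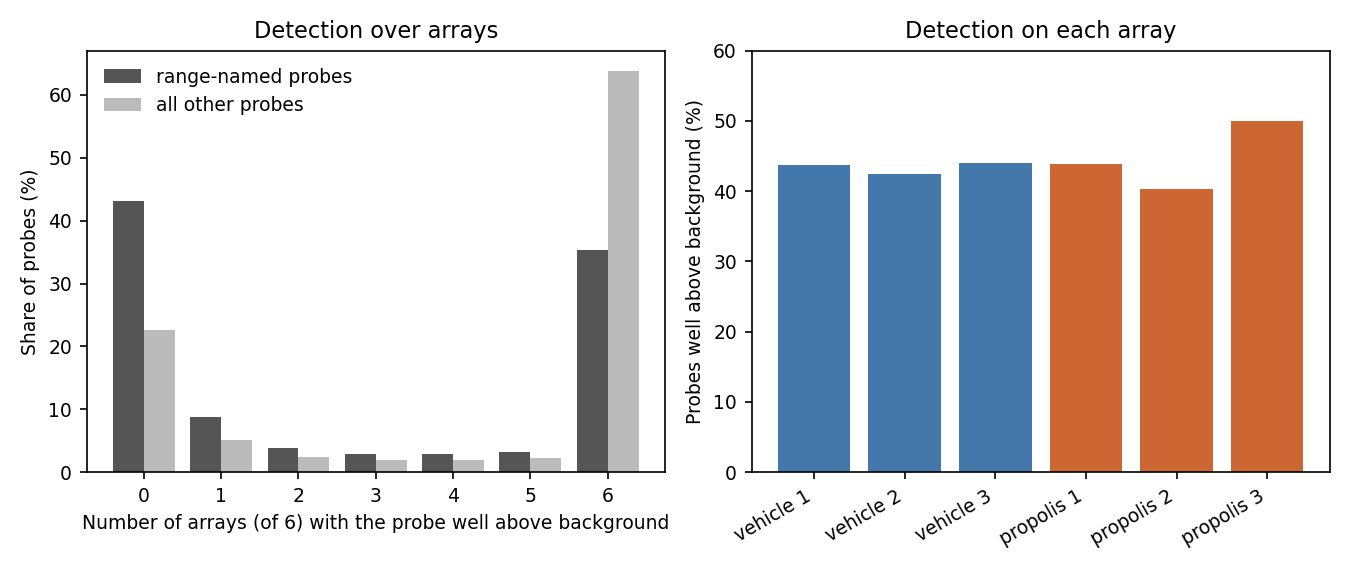
The left panel plots the share of probes (%) against the number of arrays with the probe well above background, for range-named (dark) and all other probes (light), and the right panel the share of range-named probes detected on each array (vehicle blue, propolis orange). Range-named probes pile up at 0 and 6 arrays, at 43.1% and 35.3%, and propolis 3 has the highest bar on the right.

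The number detected on an array ran from 6539 on propolis 2 (40.4%) to 8098 on propolis 3, with 7076, 6885 and 7138 on vehicle 1, 2 and 3 and 7101 on propolis 1. Propolis thus held both the lowest and the highest array, and the groups overlapped. Propolis 3 alone detected 602 probes that no other array did, while each of the other 5 had 115 to 241 of its own. Propolis 2 missed 212 probes that every other array detected, against 12 for propolis 3.

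Most ranges are tiled with several probes, a median of 3 and up to 10 for a name. Probes of 1 name share a target region and are not independent. Of the 3920 names with 2 or more probes, 790 had all of them kept (20.2%), 991 had none (25.3%) and 2139 had some (54.6%). A name ends in F or R, an ending the files do not explain, and 1067 ranges carry probes of both. In 651 of those ranges (61.0%) probes of both endings were kept, in 160 only F, in 179 only R and in 77 neither. Over all probes, 42.1% of those ending in F and 46.6% of those ending in R were kept. By length, detection ran from 39.7% of probes for ranges up to 1 kb to 51.5% for those over 1 and up to 5 kb and 43.6% for those over 50 kb.

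By chromosome, the share kept was highest on 17 (52.2% of 904 probes), 5 (51.6%), 19 (51.2%) and 2 (48.1%), and lowest on 9 (34.9% of 736), 13 (39.1%) and 10 (39.4%). The arrays spread widely around these shares, from 30.4 to 41.6% on chromosome 9 and from 49.2 to 59.0% on chromosome 17, so on each array chromosome 17 lay above what any array gave for chromosome 9, while neighbours in the order overlapped. The median vehicle level of kept probes lay between -3.55 on chromosome 18 and -2.71 on chromosome 14. Probes differ in how well they bind, so these medians describe the spots and not amounts of RNA.

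The 8 brightest kept probes differed between the groups by -0.50 to 0.04 (log2, propolis minus vehicle). A_30_P01026458 (chr11:22681800-22707775, R) read 7.76, 7.85 and 7.53 on vehicle 1 to 3 and 7.75, 7.77 and 7.67 on propolis 1 to 3. A_30_P01031754 (chr19:5801802-5802597, R) read 7.76, 7.96 and 7.74 against 6.86, 7.06 and 8.03, so its groups overlapped through propolis 3. A_30_P01022075, the brightest on chromosome 17 (chr17:17481706-17482457, R), read 7.23 to 7.41 on vehicle and 7.25 to 7.30 on propolis arrays. The other 5 of the 8 brightest lie on chromosomes 7, 2, 17 and 12, where both endings of chr12:73838608-73862621 are among them, with means of 6.99 to 7.63. A_30_P01027478, the brightest on chromosome 5 (chr5:96591892-96606467, F), read 5.52 to 6.18 on vehicle and 6.06 to 6.51 on propolis arrays. None of these 9 probes was called in the comparison that follows.

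Propolis was compared with vehicle in a limma fit over all 34782 probes of the array that met the detection rule. A probe was called at a Benjamini-Hochberg adjusted p under 0.05 over all of them. Of the 7177 range-named probes 24 (0.334%) were called, against a background of 0.727% over all tested probes. The 19 called higher in propolis stand against a background of 0.635% and the 5 called lower against 0.0920%. The 24 lie in 16 ranges on 9 chromosomes, 13 ranges higher and 3 lower, and 6 ranges held 2 or more called probes.

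The depth of detection bears on most of these calls. Of the 24, 14 were detected on all propolis arrays and no vehicle array and 3 on all vehicle arrays and no propolis array, so they met the detection rule only through the group in which they were high and had to differ. For those 17, a fold change is given as a lower bound, the bright group's mean against a floor. On each dim array the floor is the higher of the array's lowest detected signal and the probe's own signal there. It is no strict detection limit, since undetected probes can read above it. A_30_P01019541, detected on no array, read -5.04 on vehicle 1, where the lowest detected signal was -5.33. Each "at least" value therefore holds against that floor only. Among the 5711 probes detected on all 6 arrays, 6 were called (0.105%, background 0.573%), 4 higher (background 0.505%) and 2 lower (background 0.0679%). Over all 16194 range-named probes, 62 were detected on every propolis array and no vehicle array and 10 the other way round, against 154 and 27 of the 39487 other probes.

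Most calls were lost when an array was left out. Without vehicle 1, 2 or 3 in turn 5, 3 and 6 probes were called (background 0.201%, 0.0489% and 0.201%). Without propolis 1, 2 or 3 there were 8, 2 and 27 (background 0.27%, 0.0633% and 0.472%), and 13 of the 27 were among the 24. Only 2 of the 24 were called in all 6 of these fits and 11 in none. The detection rule was set once on all 6 arrays and not redone in these fits. Both of those 2 met it through 1 group only and had to differ. Leaving out both vehicle 2 and vehicle 3, the arrays with acinar and intestinal markers, leaves 1 vehicle array, too few to count calls. The median difference was then -0.21 over the range-named probes and -0.07 over all. All 24 called probes kept their direction, as they had to, since the groups of none of them overlapped. The fit with the slide as a block called 34 (background 1.07%), 26 higher (background 0.868%) and 8 lower (background 0.198%), with 22 of the 24 among them. In the authors' deposited value table the same fit called the same 24 probes, 19 higher and 5 lower (background 0.724%, 0.632% and 0.0920%).

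A wider count, at least 2-fold with an unadjusted p under 0.05, took in 241 of the 7177 (3.36%, background 4.85%), 122 higher (background 3.02%) and 119 lower (background 1.83%). Its split depended on the scaling, at 160 higher and 84 lower after quantile normalisation and 99 and 159 with the percentile taken over probes detected on every array. It held 711 without propolis 3 and 709 on slide 1 alone. In these other settings the share over all probes was not counted, so the shifts cannot be set against the whole array. The groups did not overlap for 967 probes (13.5%, background 16.8%), 456 higher (background 10.1%) and 511 lower (background 6.67%).

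The most marked fall was in a range on chromosome 14, chr14:77258025-77278750. A_30_P01030451 (ending F) read -3.49, -4.01 and -4.00 on vehicle 1 to 3 and -7.92, -7.45 and -7.91 on propolis 1 to 3. It was detected on every vehicle array and no propolis array, at least 3.48-fold lower in propolis (limma, adjusted p = 0.0051). It thus met the detection rule only through vehicle and had to differ. The fits with 1 array left out all called it, on probes chosen with all 6 arrays. A_30_P01029085 of the same name read -3.53, -4.29 and -4.51 against -7.82, -7.34 and -7.25, at least 2.88-fold lower (limma, adjusted p = 0.015). Some gap between the groups was therefore fixed by the detection rule for both.

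The rest of that range gave the same sign with less agreement. The other 3 probes ending in F had differences of -2.50, -1.18 and -0.93 and were not called. A_30_P01027304, in the overlapping range chr14:77261377-77274982 (F), read -4.13, -4.81 and -4.87 against -6.94, -6.64 and -6.48, at least 2.04-fold lower (limma, adjusted p = 0.033). The 5 probes ending in R in the longer range were detected on 1 array at most, so their ending showed nothing to compare.

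The other range that fell, chr9:65368908-65377592 (R), had its 2 called probes detected on all 6 arrays. A_30_P01024579 read 0.76, 0.08 and 0.13 on vehicle and -1.78, -2.84 and -2.37 on propolis arrays, a difference of -2.65 ± 0.33 (SE, n = 3 arrays a group; limma, adjusted p = 0.032). A_30_P01020239 read 0.00, -0.65 and -0.60 against -2.53, -3.79 and -2.96, a difference of -2.68 ± 0.37 (limma, adjusted p = 0.040). The remaining probe, A_30_P01018137, was detected on 5 arrays, differed by -2.65 as well and missed the threshold (limma, adjusted p = 0.060). Every vehicle array lay above every propolis array for all 3. Neither called probe was called with any 1 array left out, where their adjusted p ran from 0.052 to 0.15.

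Among the probes that rose, A_30_P01023066 (chr5:15033568-15033987, F) had the lowest p. It read -7.37, -7.28 and -7.07 on vehicle arrays, where it was not detected. On propolis arrays it read -3.92, -3.55 and -3.44, at least 3.29-fold higher (limma, adjusted p = 0.0051). It is the other probe called whichever array was left out. This probe too met the detection rule through propolis only and had to differ. The 2 further probes of the range differed by 0.64 and 1.76, the first detected on all 6 arrays and not called and the second on 1 array. In a second range of that chromosome, chr5:15146475-15170100 (F), 2 of 4 probes were called, A_30_P01018533 at least 1.81-fold and A_30_P01031842 at least 1.75-fold higher (limma, adjusted p = 0.015 and 0.016), and the probe detected on all 6 arrays differed by 0.51 and was not called.

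In 2 ranges every probe was called. In chr4:88745770-88774130 (R), A_30_P01020035 read -6.60, -7.50 and -7.05 on vehicle and -3.50, -3.64 and -3.92 on propolis arrays, at least 3.19-fold higher (limma, adjusted p = 0.011). Its companions A_30_P01024210 and A_30_P01032679 were at least 2.92-fold and 2.08-fold higher. In chr9:96670035-96682896 (F), A_30_P01031383 read -5.31, -6.19 and -6.00 against -2.97, -3.49 and -3.91, at least 3.72-fold higher (limma, adjusted p = 0.044). A_30_P01027136 and A_30_P01032287 of that range were at least 1.98-fold and 1.89-fold higher. None of these 6 probes was detected on a vehicle array, so each met the detection rule only through propolis and had to differ. Probes of 1 range also share the arrays and are not independent. A_30_P01020835, in the overlapping range chr9:96673952-96674816 (F), read -1.98 on propolis 1 and -4.25 and -4.24 on propolis 2 and 3, at least 3.64-fold above vehicle, and was not called (limma, adjusted p = 0.092).

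**Figure D2:**
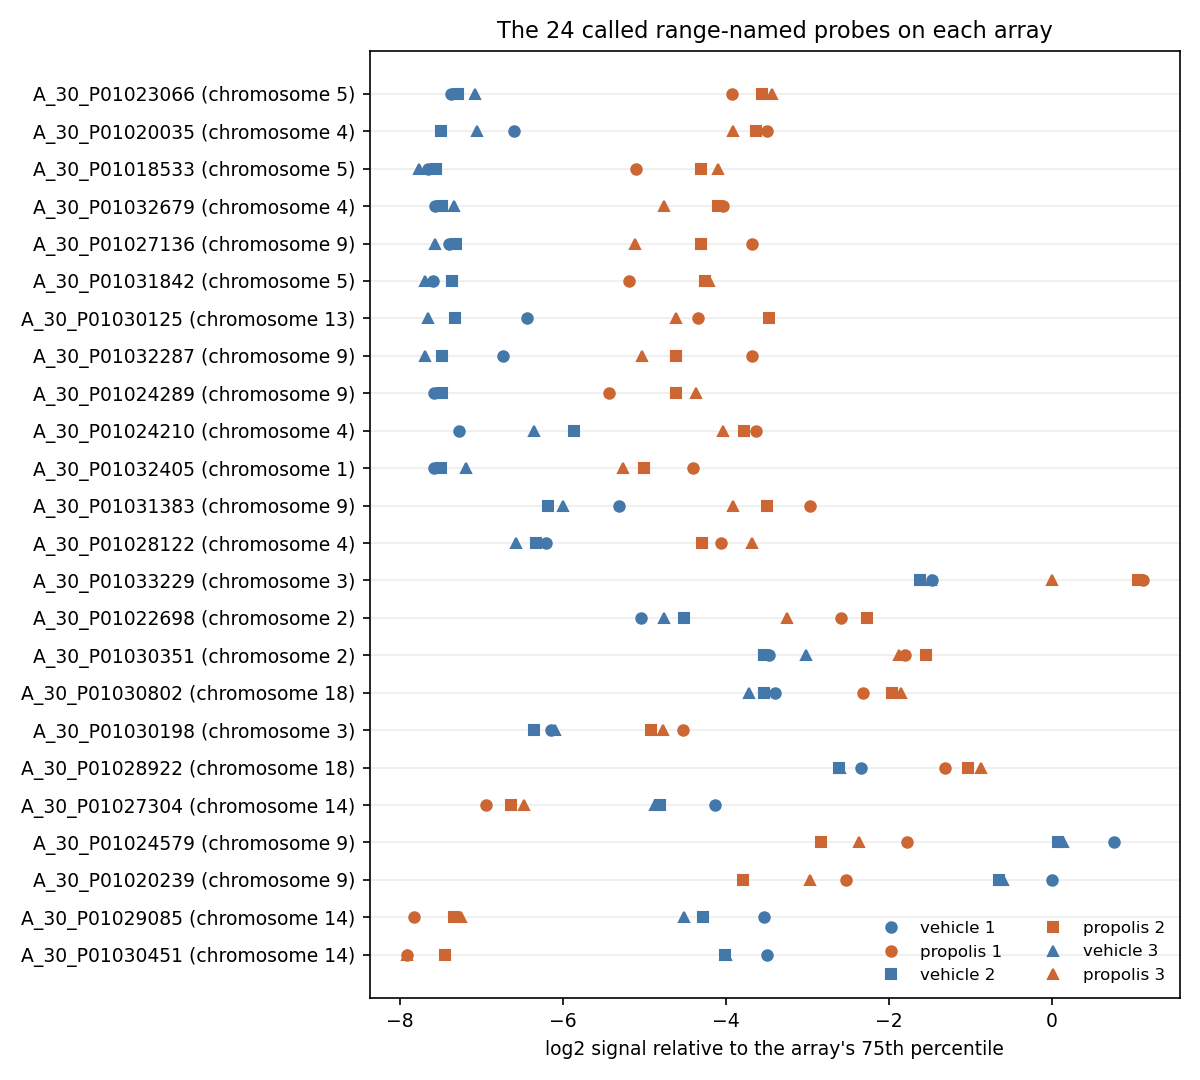
Each row is 1 of the 24 called range-named probes and each symbol its level on 1 array, in log2 relative to the array's 75th percentile, with vehicle in blue, propolis in orange and the symbol's shape giving the replicate. No row's groups overlap, and most of the probes that rose sit near -7 on the vehicle arrays.

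Further ranges held a single called probe. A_30_P01030125 (chr13:70815593-70820844, R) was at least 2.32-fold higher (limma, adjusted p = 0.043), and its 2 companions, detected on all 6 arrays, differed by 1.47 and 1.70 (adjusted p = 0.064 and 0.069). A_30_P01024289 (chr9:67414463-67483185, R) was at least 1.47-fold higher, and 2 probes of that name detected on all 6 arrays differed by 0.48 and 1.76. A_30_P01032405 (chr1:138592780-138622719, F) was at least 1.38-fold higher, with its only companion detected on no array.

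The rest of the called probes were named after their values were seen. A_30_P01028122 (chr4:3169583-3180017, F) was at least 2.55-fold higher, while A_30_P01027569 of that name, detected on all 6 arrays, differed by 0.47 and read -0.80 on vehicle 3 against -4.18 and -4.36 on vehicle 1 and 2. A_30_P01030198 (chr3:57416618-57429679, R) was at least 1.54-fold higher, with no other probe of its range kept.

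The brightest called probe was A_30_P01033229 (chr3:87757295-87774970, F), also chosen after its values were seen. It read -1.47, -1.61 and -1.48 on vehicle and 1.12, 1.06 and -0.00 on propolis arrays, a difference of 2.25 ± 0.33 (SE, n = 3 a group; limma, adjusted p = 0.047). Propolis 3 is the lowest propolis array, so the difference was 2.63 on slide 1 and 1.48 on slide 2. Of its 4 companions ending in F, 3 differed by 2.51, 2.63 and 3.01 and missed the threshold (adjusted p = 0.053 to 0.085). The remaining one, A_30_P01026280, was bright and flat, at 6.66, 6.88 and 5.99 against 6.59, 6.82 and 6.05. Probes of 1 name therefore did not read 1 level or 1 difference here. The 5 probes ending in R were detected on 1 array at most.

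Probes of the 2 endings also differed on chromosome 2, in chr2:143988645-143993945. A_30_P01030351 (R) read -3.47, -3.53 and -3.01 on vehicle and -1.80, -1.55 and -1.88 on propolis arrays, a difference of 1.60 ± 0.22 (limma, adjusted p = 0.040). A_30_P01022698 (R), detected on 5 arrays, differed by 2.07 ± 0.30 (limma, adjusted p = 0.047). All 5 probes ending in R were kept and had differences of 1.17 to 2.14, in each case with every propolis array above every vehicle array. The 5 ending in F ran from -0.46 to 0.69, with none called and 2 kept. Of those 2, A_30_P01032843 read -0.63 to -1.16 on vehicle and -0.81 to -1.17 on propolis arrays. A_30_P01018149 read -2.53, -2.57 and -2.81 against -1.85, -1.78 and -2.22, higher on every propolis array by a mean of 0.69 and not called (limma, adjusted p = 0.26).

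On chromosome 18 the called probes had smaller differences. A_30_P01028922 (chr18:63355660-63369610, R) read -2.35, -2.61 and -2.59 on vehicle and -1.31, -1.03 and -0.86 on propolis arrays, a difference of 1.45 ± 0.20 (limma, adjusted p = 0.040). A_30_P01030802 (chr18:63480341-63480899, R) read -3.39, -3.53 and -3.71 against -2.32, -1.96 and -1.85, a difference of 1.50 ± 0.20 (limma, adjusted p = 0.040). Both were chosen after their values were seen, and neither was called with any 1 array left out.

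Most neighbours ending in R were higher too without being called. All 5 probes ending in R of the first range differed by 1.28 to 1.48 and all 3 of the second by 1.50 to 1.52. The 5 ending in R of the range chr18:63455560-63548085, which overlaps the second, differed by 1.27 to 1.56 (adjusted p = 0.054 to 0.094), and its 5 ending in F by -0.13 to 0.07. Over all kept probes ending in R within 200 kb of the first range the differences ran from 0.54 to 1.63. The 5 probes ending in F of the first range ran from -0.09 to 1.94, and the only one of them detected on over 2 arrays is the one at -0.09. On chromosome 18, 18 of the 266 kept range-named probes were at least 2-fold higher with an unadjusted p under 0.05 (limma). The background of this rule was 3.02%, and over all kept range-named probes its share was 1.70%. All 18 end in R and lie in 6 ranges within 200 kb of the 2 called ones. That window was drawn around calls of these same data. The 18 probes share the 6 arrays and lie close together, so they are not independent of each other.

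**Figure D3:**
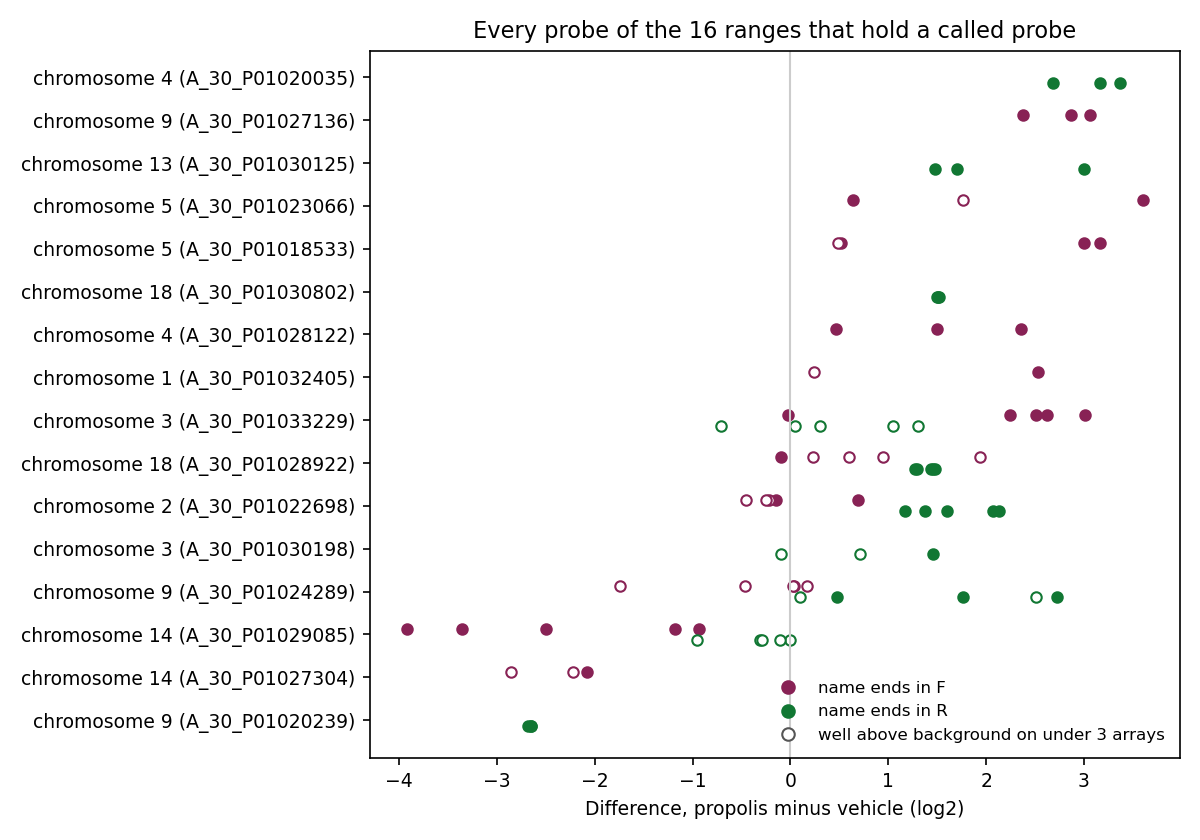
Every probe of the 16 ranges that hold a called probe is plotted by its difference, propolis minus vehicle (log2), with 1 range a row named by chromosome and a called probe, colour for the ending of the name and open symbols for probes detected on under 3 arrays. On chromosome 2 the probes ending in R lie at 1.17 to 2.14 and those ending in F at -0.46 to 0.69.

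Over the whole set, pairs of kept probes with 1 range and 1 ending (7873 pairs in 1547 ranges) had the same sign of difference in 72.5% of cases, a correlation of 0.58 and a median gap of 0.21. Pairs with 1 range and opposite endings (5280 pairs in 651 ranges) had it in 56.5%, with a correlation of 0.09 and a median gap of 0.38. These are descriptions over probes that share the 6 arrays, and a probe enters several pairs.

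Over all 7177 probes the middle of the distribution lay slightly under 0. The median difference was -0.13, with an interquartile range of -0.38 to 0.11, and 4637 probes were lower and 2540 higher, against a median of 0.01 over the other probes and -0.02 over all. After quantile normalisation the median was -0.02 for range-named probes and 0.01 for all. The sign turned between the slides, with a median of -0.26 on slide 1 and 0.18 on slide 2, where the other probes had 0.01 and 0.06. The 2 slides gave opposite signs for 4042 probes (56.3%).

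The split between slides was shared with other dim probes. The kept range-named probes were divided by level into 3 equal groups. In the dimmest group the medians were -0.35 on slide 1 and 0.21 on slide 2, and other probes of those levels had -0.30 and 0.23. In the middle group they were -0.29 and 0.18, against -0.21 and 0.16 for the others. In the brightest group they were -0.16 and 0.17, against 0.08 and 0.03, but the other probes of that group were brighter, with a median level of 1.10 against -0.79. All 20 chromosomes had a median under 0 on slide 1, from -0.39 to -0.18, and over 0 on slide 2, from 0.12 to 0.26. The median over kept range-named probes was -3.46 and -3.33 on propolis 1 and 2, the lowest arrays, -3.10 on propolis 3 and -3.08, -3.09 and -3.22 on vehicle 1 to 3. What part the slide, scanning or RNA had in this was not tested.

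**Figure D4:**
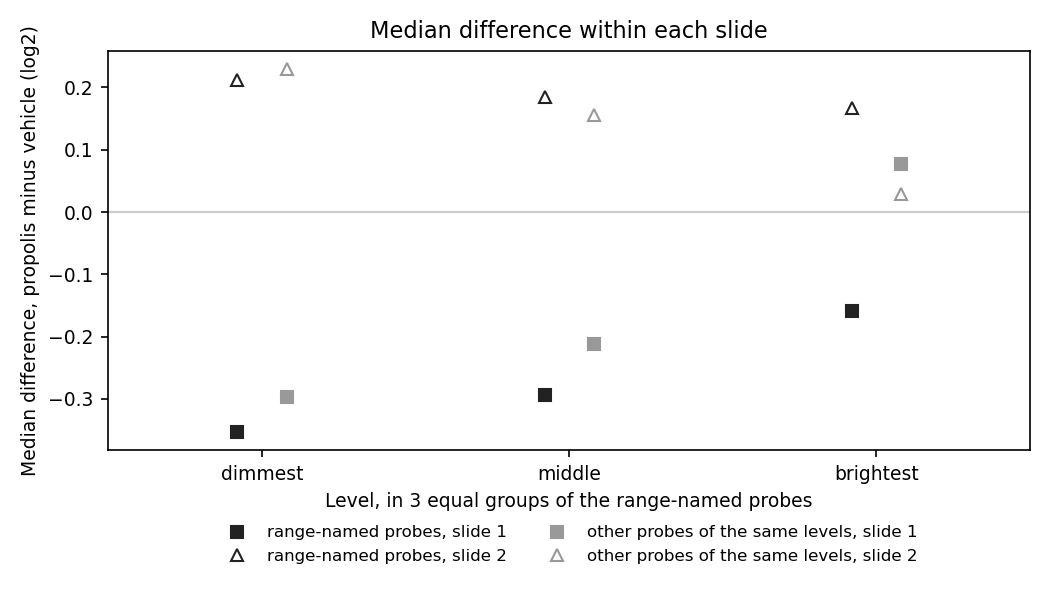
The median difference, propolis minus vehicle (log2), is plotted for 3 equal groups of the range-named probes by level (black) and other probes of the same levels (grey), with squares for slide 1 (2 arrays against 2) and triangles for slide 2 (1 against 1). Black squares lie at -0.35 to -0.16 and black triangles at 0.17 to 0.21, and grey symbols follow them in the 2 dimmer groups.

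**Figure D5:**
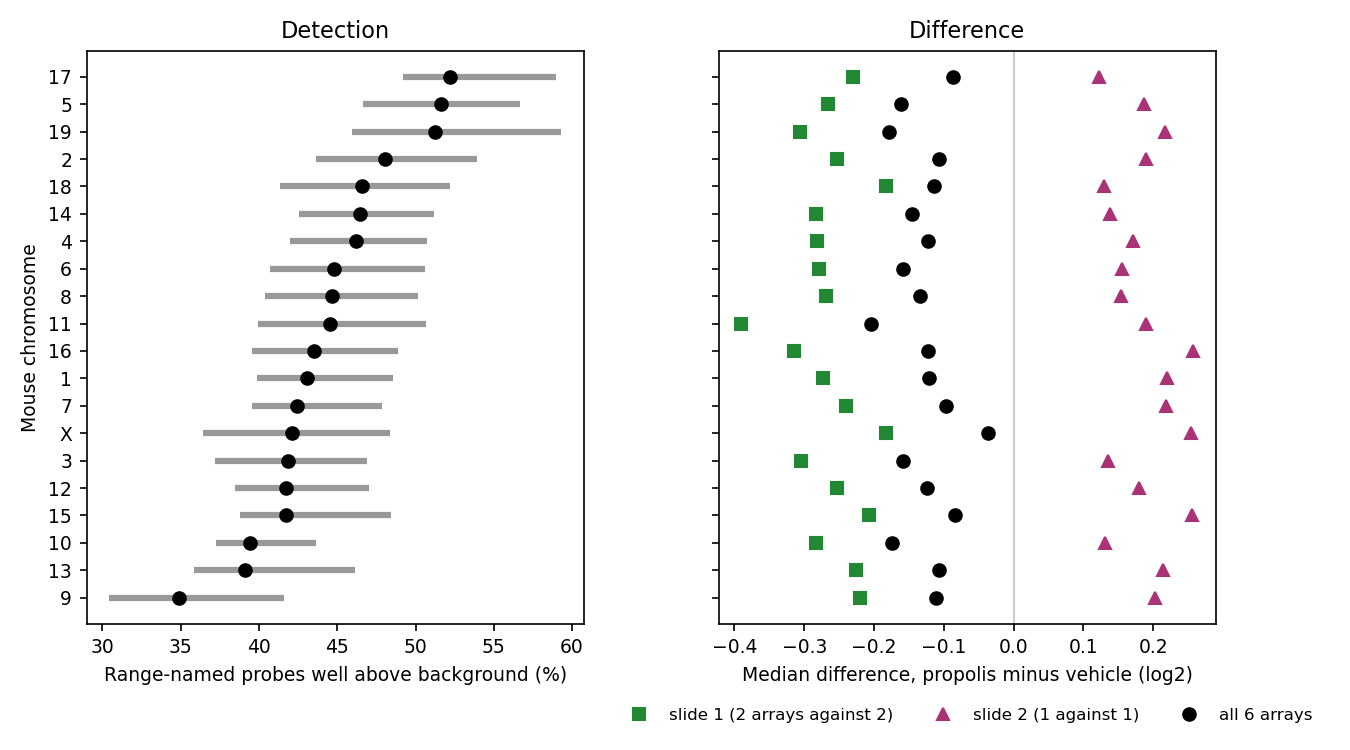
For each chromosome the left panel shows the share of range-named probes kept (points, %) with the lowest to highest share on a single array (grey lines), and the right panel the median difference, propolis minus vehicle (log2), on slide 1 (squares), slide 2 (triangles) and all arrays (circles). The share kept falls from 52.2% on chromosome 17 to 34.9% on chromosome 9, and every chromosome is under 0 on slide 1 and over 0 on slide 2.

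In these probes the first principal component set the slides apart, and within slide 1 also the treatments. This component (46.0% of variance) gave -0.53 to vehicle 3 and -0.41 to propolis 3, against 0.57 and 0.47 for propolis 1 and 2 and -0.04 and -0.06 for vehicle 1 and 2. The second (24.8%) did not follow the slides. It gave 0.51 and 0.58 to vehicle 1 and 2 and -0.36 to vehicle 3. Propolis 1, 2 and 3 had -0.43, -0.01 and -0.28. Over range-named probes vehicle 3 and propolis 3 correlated at 0.964, and vehicle 3 and propolis 1, which differ in slide and treatment, at 0.911. Over the other probes the same pairs were at 0.945 and 0.944. The remaining pairs that differ in slide and treatment ranged more widely over range-named probes. Vehicle 3 with propolis 2 gave 0.912, and propolis 3 with vehicle 1 and 2 gave 0.945 and 0.944. Across slides within treatment, range-named probes gave 0.945 and 0.941 for vehicle 3 with vehicle 1 and 2. Propolis 3 with propolis 1 and 2 gave 0.924 and 0.934. On slide 1, vehicle 1 and 2 gave 0.981, propolis 1 and 2 gave 0.967, and pairs across treatment 0.940 to 0.958.

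Vehicle 3 had range-named probes bright on that array alone. For 28 kept probes it stood above the next highest array by over 2 (log2), against 1 to 3 probes for each of the other arrays. A_30_P01018914 and A_30_P01028766 (chr9:78107225-78118850, F) read 3.53 and 3.51 on vehicle 3, and -2.48 and -2.24 on the next array, propolis 1. A_30_P01029478 (chr6:40693617-40720167, F) read 4.51 on vehicle 3 and -0.62 to 0.32 elsewhere. Propolis 1 was also the array with the second highest intestinal markers (-0.71), and the part of intestinal RNA in these probes was not tested. None of the 3 was called (limma, adjusted p = 0.69 to 0.77). A_30_P01029690 (chr16:45016828-45069177, F) was detected on the vehicle arrays only, at -2.36 on vehicle 3 and -5.03 and -4.99 on vehicle 1 and 2, and was not called.

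Other arrays had single bright probes of smaller gap. On vehicle 2, A_30_P01025532 (chr8:27259077-27268252, F) read -1.82 against -4.57 on the next array. On propolis 2, A_30_P01022501 (chr8:119732348-119749198, R) read -2.26 against -4.93. On propolis 3, A_30_P01019177 (chr13:112648658-112719303, R) read -2.28 against -4.80, and on vehicle 1, A_30_P01027591 (chr1:58443698-58449898, R) read -2.97 against -5.27.

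Noncoding RNA genes that have a name were measured by other probes of the array. Of 65 listed genes 37 had a probe and 31 met the detection rule. The 31 include Sra1, which RefSeq types as protein-coding. It differed by 0.43 without overlap of the groups and is part of the counts below. Of these 31, 1 was called (background 0.727%), and 21 were higher and 10 lower with a median difference of 0.16. Dio3os, transcribed from the strand opposite to the thyroid hormone deiodinase gene Dio3, read -2.99, -2.86 and -2.92 on vehicle and -0.50, -0.95 and -0.93 on propolis arrays, and rose by 2.13 ± 0.20 (limma, adjusted p = 0.014). Without vehicle 1, vehicle 2, vehicle 3 or propolis 2 it was not called.

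Of the listed genes not called, those of lowest p all had higher propolis means. Mirg, a host of microRNAs in the imprinted cluster that also holds Dio3os, read 0.38 to 0.58 on vehicle and 1.09, 2.36 and 1.73 on propolis arrays (limma, adjusted p = 0.21). Meg3, a maternally expressed RNA of the same cluster, had a vehicle mean of 4.09 ± 0.11 (SD, n = 3) and read 4.44, 5.40 and 5.11 on propolis arrays (limma, adjusted p = 0.29), with its 3 probes differing by 0.52 to 0.90. Snhg18, a host of small nucleolar RNAs, had means of 2.43 and 3.07 (limma, adjusted p = 0.23). Fendrr, a regulator of heart and body wall development, had means of -4.86 and -3.95 (limma, adjusted p = 0.36). It was detected on 4 arrays only. On vehicle 1 and 2 it read -5.29 and -5.06, near the lowest detected signals there, -5.33 and -5.26. For each of the 4, every propolis array lay above every vehicle array, but they were picked for low p, which favours such a gap. Of the 31 listed genes that met the detection rule, 10 had groups that did not overlap, in either direction (background 16.8%). Of the 411 lncRNA-typed probes that met the detection rule 5 were called (1.22%, background 0.727%), with a median difference of -0.07.

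Mesothelial and stromal progenitor markers were higher on every propolis array, as given above, and the intestinal and acinar markers each stood out on 1 vehicle array. The 6 B cell markers averaged -1.27, 0.64 and -3.04 on vehicle 1 to 3 and -3.84 to -2.57 on propolis arrays. The 4 endothelial markers averaged 2.10 to 2.55 on vehicle and 1.21 to 2.31 on propolis arrays, and the 4 adipocyte markers -0.30 to 0.95 and -1.56 to -0.15. The part of these cell types in the called ranges was not tested.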

How the data were processed

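Total RNA of 6 samples, 3 given vehicle and 3 given propolis, was labelled with Cy3 and hybridised to 1-colour Agilent arrays, per the labels' protocols. The deposited processed signal is an intensity, background-subtracted and detrended per spot by Agilent Feature Extraction 10.7.3.1, per the file headers, and not scaled between arrays. Its log2 was taken, each array's 75th percentile over all probes was subtracted, and non-uniform spots were set to missing, which dropped 4 probes. The authors' deposited value table holds log2 values of the same arrays, each array's 75th percentile near 0, by steps not given in the sources used here. It matched the log2 signals by probe name (r of 0.999997 or more) and called the same 24 range-named probes, so the scanner values are reported. Flags (well above background, non-uniform) are those deposited in the scanner files.

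A probe entered with the well-above-background flag on 3 or more of 6 arrays, which 34786 did. limma 3.58.1 in R 4.3.3 (lmFit, eBayes) was fitted on all entering probes without a block, checked on simulated data, and p-values were adjusted by Benjamini-Hochberg. An exact permutation test of 3 against 3 cannot go below 0.1 (two-sided). P-values measure the spread between these samples, and 6 arrays limit the precision. No range-named spot was saturated. Named genes came through accessions in a RefSeq table of GRCm38.p6, used for names only, with 27235 probes matched, and of several probes the brightest stands for a gene. Ranges were not matched to neighbouring genes and no sequences are shown, since no mm9 genome was used here.

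Probes were named by rule: the largest called differences without overlap (up to 12 a direction), every range with 2 or more called probes, the 8 brightest, up to 4 a direction with the largest lower bound, up to 3 a single array, the brightest on the 4 best-detected chromosomes, and of the listed noncoding RNA genes those called and 4 more of lowest p. The remaining called probes were added after their values were seen. The members, lists and rules were chosen with earlier results of these data known. Alternatives covered scaling, background correction, detection filters, weights, probe choice, blocks, thresholds and leaving out arrays. The background alternative (normexp, offset 50) was planned on mean signals and run on median signals, the ones used from the scanner files. Replicate numbers were not taken to pair the samples, since the correlations of deviations over all probes were 0.06, 0.30 and 0.17, although over the range-named probes they were 0.24, 0.34 and 0.50.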

Additional observations from a re-analysis of the deposited data

How the results depend on the processing

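The median difference of the range-named probes was under 0 in all 22 other settings that give one, from -0.26 to -0.02. No called probe tested in any of them changed direction. In the fits that leave out arrays or add a block none could, since the groups of no called probe overlapped. The counts moved, and at an adjusted p under 0.05, in each fit that called any, the share of range-named probes called was below that of all probes. Called probes (higher and lower), with the ranges holding them, numbered 39 (33 and 6) after quantile normalisation, 17 (12 and 5) with the percentile over probes detected on every array, and 6 (3 and 3) in 2 ranges with normexp. They numbered 15 (13 and 2) in 8 ranges for probes detected on all 6 arrays, 13 (10 and 3) in 9 ranges with no detection filter and all 16194 probes, and 8 (6 and 2) in 8 ranges with the brightest probe of each name. Array weights gave 817 (234 and 583) in 546 ranges, 11.4% of the range-named probes against 11.5% of all, and the slide as a block gave 34 (26 and 8) in 25 ranges. Slide 1 alone gave 4 (4 and 0) in 3 ranges. At an adjusted p under 0.01 there were 3 (2 and 1), and under 0.10 there were 57 (46 and 11). Leaving out 1 array at a time gave 2 to 27 called probes, 1 to 14 higher and 1 to 13 lower, in 2 to 19 ranges.

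The wider count of at least 2-fold was 26 with normexp, 141 for probes detected on all 6 arrays, 457 with no detection filter, 618 with array weights, 71 with the brightest probe of each name, 709 on slide 1 alone, and 209 to 711 with 1 array left out. Of the listed noncoding RNA genes, 6 were called with array weights, 0 on slide 1 alone and at an adjusted p under 0.01, and 0 to 1 with 1 array left out. For the wider count, the share over all probes was not counted in these settings. The cause of each shift was not tested.

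The replicate numbers were not taken to pair the samples. With a replicate block 8 probes were called (5 and 3; 0.111%, background 0.311%) in 5 ranges, all 8 among the 24, and 0 of the listed genes. They are A_30_P01030451, A_30_P01020239 and A_30_P01024579, lower, and A_30_P01023066, A_30_P01020035, A_30_P01032679, A_30_P01031383 and A_30_P01032287, higher. Samples correlated best with their own number for 2 of 3 numbers.

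Signal over background limits most calls, since 17 of the 24 probes were not well above background in a whole group. For these a fold is given against a floor only. Each of the 16 ranges rests on 1 to 3 called probes.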
